A study of Mus musculus with 9 samples.

Results

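The 10 genes described here encode protein phosphatase 2A (PP2A) and the enzyme that removes a methyl group from it. They were picked by name from the 27179 genes of a count table of the hypothalamic paraventricular nucleus (PVN) of 9 male C57BL/6 wild type mice, which the study's methods give as C57BL/6J. The list was selected with an earlier fit of these same libraries in view, in which Ppp2ca and Ppp2cb differed between the diet groups. The levels of the 10 genes and their differences between groups are therefore given as a description, with no p-value. From 5 weeks of age the Control mice ate a diet with 16% of calories from fat for 12 weeks, and the HFD mice ate a diet with 60% of calories from fat for the same time. The HFD+Mino mice ate the high fat diet and also received minocycline, a tetracycline antibiotic used to dampen microglial activation, at 40 mg/kg/day in their drinking water for the last 6 weeks. There were 3 mice in each group, each mouse gave 1 library, and the design has no control-diet group on minocycline.

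PP2A is one of the main serine and threonine phosphatases of the cell and is abundant in brain. Its core is a scaffold (A) subunit bound to a catalytic (C) subunit, and a regulatory (B) subunit joins the core and directs it to substrates, among them kinases of insulin signaling such as AKT. The catalytic subunit comes from Ppp2ca (alpha) or Ppp2cb (beta), and the scaffold from Ppp2r1a (alpha) or Ppp2r1b (beta). The regulatory genes examined were Ppp2r2a and Ppp2r2b of the B family and Ppp2r5a, Ppp2r5c and Ppp2r5e of the B′ family. Ppme1 encodes the methylesterase that demethylates the C-terminus of the catalytic subunit, a mark that influences which regulatory subunit joins.

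Ppp2ca lies on chromosome 11 from 52098824 to 52122749 in GRCm38, Ppp2cb on chromosome 8 from 33599621 to 33619804, Ppp2r1a on chromosome 17 from 20945454 to 20965905 and Ppp2r1b on chromosome 9 from 50856896 to 50899325. Ppp2r2a lies on chromosome 14 from 67014056 to 67072471. Of the B′ genes, Ppp2r5a lies on chromosome 1 from 191351981 to 191397041, Ppp2r5c on chromosome 12 from 110447144 to 110583075 and Ppp2r5e on chromosome 12 from 75449463 to 75596237. Ppme1 lies on chromosome 7 from 100326737 to 100371896. The values below are reads counted over each gene as a whole.

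Promoter sequence was on hand from RefSeq (GRCm38.p6) for 6 of the 10 genes, and was not found there for Ppp2cb, Ppp2r2a, Ppp2r2b and Ppp2r5e. The 250 bases before the start are shown for Ppp2ca and Ppp2r5a, which were both low in HFD, and for Ppp2r1a, whose level was alike in the Control and HFD groups. Each is read 5′ to 3′ on the strand of the gene, with motifs in capitals on either strand. The motifs searched were the GC box with the letters GGGCGG, the CCAAT box, the motif TGACG that forms the core of a cyclic AMP response element, and the TATA box with the letters TATAAA.
Ppp2ca, chr11:52098574-52098823, plus strand: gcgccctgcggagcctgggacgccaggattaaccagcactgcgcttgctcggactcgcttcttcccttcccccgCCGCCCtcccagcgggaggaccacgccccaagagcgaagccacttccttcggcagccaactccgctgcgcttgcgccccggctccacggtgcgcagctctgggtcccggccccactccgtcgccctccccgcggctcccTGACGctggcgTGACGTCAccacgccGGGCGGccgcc
Ppp2r5a, chr1:191397042-191397291, minus strand: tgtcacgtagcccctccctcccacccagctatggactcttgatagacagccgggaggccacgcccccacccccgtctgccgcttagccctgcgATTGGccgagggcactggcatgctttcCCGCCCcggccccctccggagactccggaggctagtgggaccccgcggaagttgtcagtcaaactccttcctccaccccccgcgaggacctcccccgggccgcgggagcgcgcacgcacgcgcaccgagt
Ppp2r1a, chr17:20945204-20945453, plus strand: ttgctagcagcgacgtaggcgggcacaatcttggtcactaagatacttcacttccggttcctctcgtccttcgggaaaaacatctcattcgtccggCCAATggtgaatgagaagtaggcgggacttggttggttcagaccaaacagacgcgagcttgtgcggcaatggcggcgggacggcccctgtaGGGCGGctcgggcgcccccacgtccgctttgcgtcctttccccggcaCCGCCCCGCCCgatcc
The Ppp2ca window held 3 matches to TGACG, found in 17.9% of the 27025 promoter windows of this length, and a pair of these overlap to form 1 full TGACGTCA, found in 1.62%. It also held 2 matches to GGGCGG, a motif in 32.9% of windows. The Ppp2r5a window held 1 GGGCGG and 1 CCAAT match, the latter motif being in 34.5% of windows, and no TGACG. The Ppp2r1a window held 3 GGGCGG matches and 1 CCAAT match. No TATAAA, found in 13% of windows, and no CACGTG, found in 6.05%, was in any of the 6 windows. Ppp2ca and Ppp2r5a thus shared only the GC box among the letters searched, which Ppp2r1a, Ppp2r1b, Ppp2r5c and Ppme1 held too. The windows were GC-rich, with 73.6% G and C in Ppp2ca, 70.4% in Ppp2r5a and 61.6% in Ppp2r1a against a median of 52% over all windows.

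The 9 libraries held 17728590 to 42326213 counted reads, and all 10 genes passed the filter on low counts that left 17344 genes for testing. Levels are CPM (counts scaled to library size) after TMM scaling (edgeR's trimmed mean factors), and differences are log2 fold changes ± SE from 1 edgeR fit of all 9 libraries. Some libraries stood apart in their tissue markers. Control replicate 1 had 0.149 CPM of Avp (vasopressin, a PVN neuropeptide) and 0.77 CPM of Oxt (oxytocin), no read of the PVN transcription factor Otp, and 18005 CPM of the myelin gene Mbp against 1183 to 4361 CPM in the others. The PVN markers Trh (5.49 CPM) and Sim1 (0.77 CPM) were also lowest there. The PVN marker Crh did not stand apart, at 20.6 CPM against 18.0 in Control replicate 2 and 14.4 in HFD replicate 1. Otp was low throughout, at most 2.77 CPM in any library. The labelled PVN was therefore not borne out in that library by these markers other than Crh. HFD+Mino replicates 1 and 2 had 28049 and 22180 CPM of Avp, against at most 1984 CPM in the other 7 libraries. The 6 PVN markers together ran from 27.8 to 2563 CPM in Control, 2479 to 3726 in HFD and 3104 to 37726 in HFD+Mino. The 6 oligodendrocyte markers ran from 3750 to 29217, 2684 to 6886 and 2221 to 5894 CPM, the 7 neuron markers from 5047 to 7746, 3775 to 5875 and 4359 to 5017 CPM, and the 6 astrocyte markers from 1912 to 2049, 2484 to 2700 and 1483 to 1808 CPM. Microglial (6 markers), endothelial (4) and ependymal or choroid plexus (5) sums stayed at or below 239.7, 146 and 192 CPM in every library. The astrocyte sums of the 3 HFD mice lay above those of all 6 others, as did the microglial sums (226 to 239.7 CPM against at most 223). Single markers were not uniform. In HFD against Control 5 astrocyte markers had a positive log2 fold change and 1 a negative one (Gfap, −0.63). Of the microglial markers 4 were positive and 2 negative (Aif1, −0.49, and C1qa, −0.42). The part of these cell types in the differences below was not tested. Of these 40 marker genes edgeR called 0 in each comparison, while 9 in HFD against Control, 15 in HFD+Mino against HFD, 18 in HFD+Mino against Control and 23 in the 3-way comparison had an unadjusted p under 0.05 and DESeq2 called 0, 9, 2 and 2. Of all tested genes 20.5%, 41.3%, 21.3% and 39.0% had such a p in these comparisons, and DESeq2 called 6.84%, 22.4%, 1.56% and 13.5%. The edgeR p of the 3-way comparison is for any difference among the 3 groups, not for HFD alone. In such bulk tissue, fewer cells of a type and less RNA per cell cannot be told apart.

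Both catalytic genes were lower in HFD than in either other group. Ppp2ca stood at 947, 798 and 644 CPM in the Control mice, at 51.5, 69.5 and 61.8 CPM in the HFD mice and at 427, 475 and 692 CPM in the HFD+Mino mice. All HFD values lay far below the other 6, and HFD+Mino overlapped Control. The HFD mean (60.9 ± 9.03, SD, n = 3) was 13.1-fold below the Control mean (796 ± 151), a log2 fold change of −3.71 ± 0.278, and HFD+Mino (531 ± 141) was above HFD by 3.12 ± 0.27. Ppp2cb, whose protein is nearly the same as that of Ppp2ca, stood at 189, 192 and 172 CPM in Control, 36.0, 47.7 and 40.1 CPM in HFD and 122, 117 and 205 CPM in HFD+Mino. Its HFD values again lay below all others, with a smaller gap. The log2 fold change of Ppp2cb was −2.16 ± 0.258 in HFD against Control and 1.84 ± 0.255 in HFD+Mino against HFD.

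The scaffold genes did not share this pattern. Ppp2r1a stood at 996, 975 and 974 CPM in Control, 865, 993 and 1087 CPM in HFD and 1069, 651 and 933 CPM in HFD+Mino. The 3 groups overlapped, and the log2 fold change of HFD against Control was 0.00 ± 0.226. Ppp2r1b, the minor scaffold, stood at 25.6, 29.2 and 31.2 CPM in Control, 22.3, 28.4 and 32.4 CPM in HFD and 8.49, 15.1 and 20.4 CPM in HFD+Mino. Its HFD+Mino values lay below those of both other groups, with a log2 fold change of −0.97 ± 0.309 against Control and −0.92 ± 0.309 against HFD. Ppp2r1b shares 3819 nt of exon with Sik2 on the opposite strand, and the library kit does not mark strand, so reads there cannot be divided between them.

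**Figure D1:**
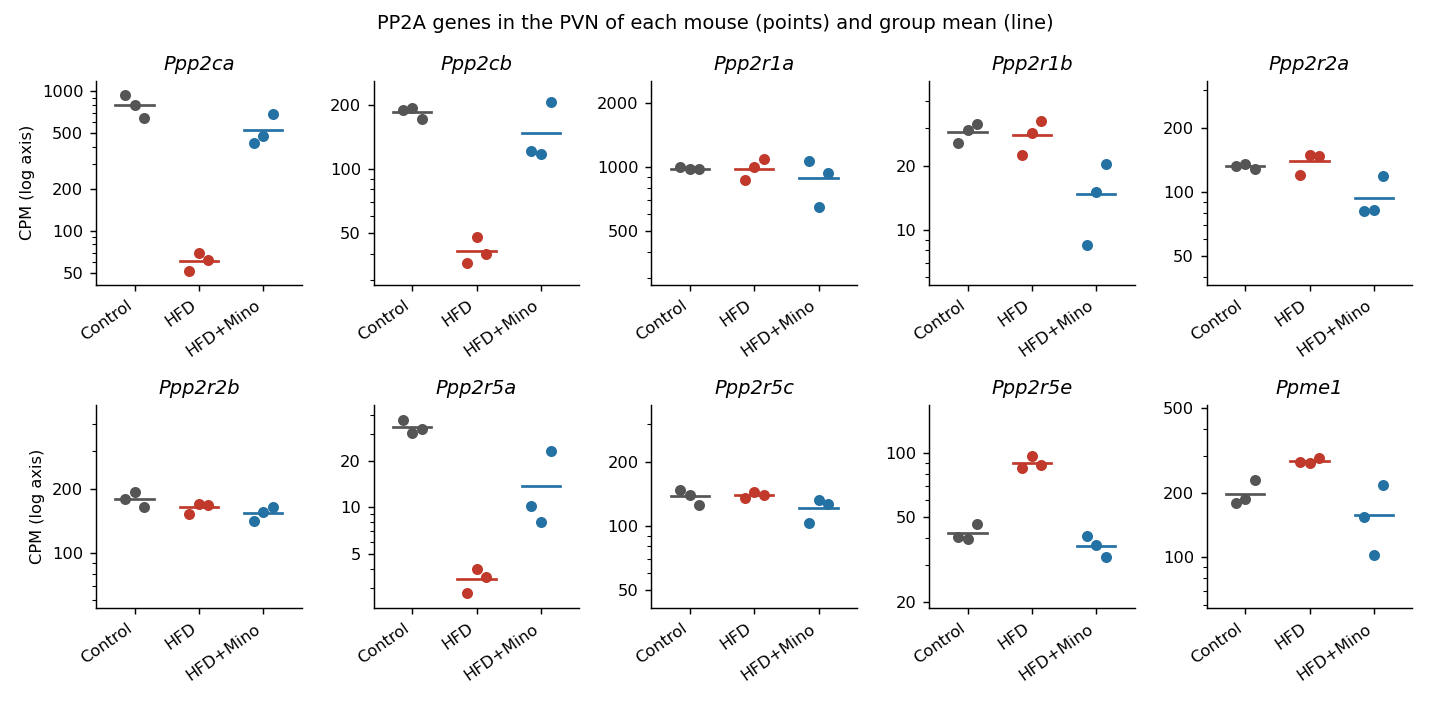
CPM on a log axis in each mouse for the 10 genes, with points for single mice (3 per group), a line at the group mean and axis limits that differ between panels. The HFD points of Ppp2ca, Ppp2cb and Ppp2r5a lie below those of all other mice and those of Ppp2r5e and Ppme1 lie above, while the 5 other genes overlap between Control and HFD.

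Ppp2r2a and Ppp2r2b, the B family members, were nearly level between Control and HFD. Ppp2r2a stood at 132, 136 and 128 CPM in Control, 121, 150 and 148 CPM in HFD and 81.3, 82.3 and 119 CPM in HFD+Mino. HFD+Mino lay below both other groups, by −0.48 ± 0.214 against Control and −0.57 ± 0.214 against HFD. Ppp2r2b, most abundant in neurons, stood at 179, 192 and 165 CPM in Control, 152, 170 and 168 CPM in HFD and 142, 155 and 165 CPM in HFD+Mino. All of its log2 fold changes were within 0.22 of 0, although its HFD+Mino values lay just under those of Control.

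The B′ family members differed in opposite directions. Ppp2r5a stood at 37.1, 30.5 and 32.3 CPM in Control, 2.76, 3.97 and 3.51 CPM in HFD and 10.2, 8.02 and 23.3 CPM in HFD+Mino. The HFD values came from 55, 137 and 141 reads, and HFD+Mino lay between the other groups without overlap with either. The log2 fold change of Ppp2r5a was −3.28 ± 0.4 in HFD against Control, 2.01 ± 0.383 in HFD+Mino against HFD and −1.26 ± 0.369 in HFD+Mino against Control. HFD+Mino replicate 3 held the highest of the 3 values, and without it the last of these differences was −1.87 and the one between HFD+Mino and HFD was 1.41. Ppp2r5c stood at 147, 140 and 125 CPM in Control, 134, 144 and 140 CPM in HFD and 103, 132 and 126 CPM in HFD+Mino, with a log2 fold change of 0.02 ± 0.19 in HFD against Control. Control and HFD overlapped there.

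Ppp2r5e was higher in HFD. It stood at 40.3, 39.6 and 46.6 CPM in Control, 85.6, 96.9 and 88.0 CPM in HFD and 40.8, 37.0 and 32.5 CPM in HFD+Mino. Every HFD value was above every other value, and HFD+Mino overlapped Control. The log2 fold change was 1.10 ± 0.194 in HFD against Control and −1.29 ± 0.195 in HFD+Mino against HFD. Ppme1, the methylesterase, stood at 180, 187 and 230 CPM in Control, 280, 277 and 293 CPM in HFD and 155, 102 and 219 CPM in HFD+Mino. Its HFD values were also above all 6 others, with smaller log2 fold changes of 0.51 ± 0.265 against Control and −0.84 ± 0.266 for HFD+Mino against HFD.

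**Figure D2:**
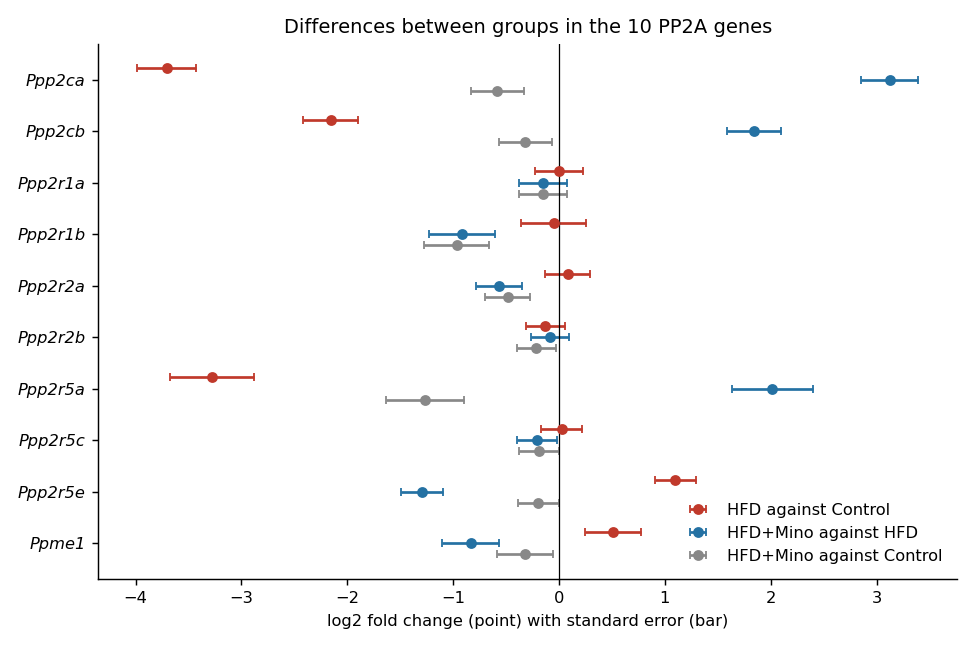
Log2 fold change (points) with its standard error (bars) for the 10 genes in the 3 comparisons. HFD against Control and HFD+Mino against HFD share the HFD mice; Ppp2ca, Ppp2cb and Ppp2r5a lie far from 0 in both, and all 10 genes lie below 0 in HFD+Mino against Control, where Ppp2r5c and Ppp2r5e turn to 0.01 and 0.07 with the trend on exon length removed.

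A gene was called where the false discovery rate (FDR) of the edgeR quasi-likelihood test was under 0.01 and the difference at least 1.5-fold. In the 3-way comparison the edgeR test was for any difference among the 3 groups. Only the 1.5-fold cut-off compared HFD with the average over the groups. A low FDR there can come from another group, as in the marker Folr1 (edgeR FDR = 0.00976). Folr1 had a mean of 9.40 CPM in HFD+Mino, against 1.78 in Control and 2.59 in HFD, and was not called. In that comparison 3 members were lower (Ppp2ca, Ppp2cb and Ppp2r5a) and 1 was higher (Ppp2r5e), against 1.21% and 0.917% of all tested genes. The same 3 and 1 were called in HFD against Control, where 1.42% of genes were lower and 0.317% higher. In HFD+Mino against HFD, which shares the HFD mice, the same 3 were higher and 1 was lower, where 1.98% of genes were higher and 2.16% lower. Between HFD+Mino and Control 0 members were called, as 0% of all genes were in each direction; 4 members and 3697 of all genes had an unadjusted p under 0.05, and DESeq2 called 0 members and 271 genes. With a replicate block that paired only the Control and HFD+Mino mice, 551 genes were called there, 0 of them members. All HFD samples were below the other 6 in 3 members and above in 2, where 9.62% and 13.4% of all genes were so placed. These counts follow from how the genes were chosen and are given for reference.

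In HFD+Mino against Control all 10 members had a negative log2 fold change, with a median of −0.32 against −0.02 over all tested genes, but Ppp2r5c and Ppp2r5e were at 0.01 and 0.07 with the trend of each library on exon length removed, and Ppp2r5e at 0.06 with that on the GC-richest 100 nt removed. In 4 of them, Ppp2r1b, Ppp2r2a, Ppp2r2b and Ppp2r5a, the HFD+Mino samples were all below the Control samples and in 0 all above, where 10.1% and 8.93% of all genes were so placed. Under the block that paired these mice, HFD+Mino against HFD called 6 members rather than 4, adding Ppp2r1b and Ppme1 as lower, while it called 4441 of all genes (25.6%) rather than 719. The difference of Ppp2r1a from Control turned from −0.15 to 0.03 without HFD+Mino replicate 2, so its direction rests on that mouse.

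Levels of different genes were compared only per length of exon, as CPM per kb. The lengths were those of GENCODE exons clipped to the RefSeq span of each gene, with the outermost exons carried to its ends. In Control the order was Ppp2ca (344 ± 65.3), Ppp2r1a (301 ± 3.94), Ppp2cb (100.4 ± 5.89), Ppme1 (74.1 ± 10.2), Ppp2r2b (50.4 ± 3.82), Ppp2r2a (24.4 ± 0.701), Ppp2r5c (16.6 ± 1.32), Ppp2r5e (6.24 ± 0.575), Ppp2r5a (4.64 ± 0.477) and Ppp2r1b (2.50 ± 0.247). Only Ppp2ca and Ppp2r1a overlapped as neighbours. In HFD, Ppp2r1a led at 302 ± 34.2 CPM per kb, followed by Ppme1 at 105.4 ± 3.13 and Ppp2r2b at 46.0 ± 2.80. Ppp2ca (26.3 ± 3.89), Ppp2r2a (25.8 ± 3.03) and Ppp2cb (22.5 ± 3.21) overlapped in the middle of that order, and Ppp2r5a (0.476 ± 0.0852) was last. In HFD+Mino, Ppp2r1a (272 ± 65.5) and Ppp2ca (229 ± 60.8) again led and overlapped. The place of Ppp2ca depends on which exons are counted. With all GENCODE exons its length is 7490 nt rather than 2318, and Ppp2cb is then above Ppp2ca in every group (125 against 106 CPM per kb in Control, 28.1 against 8.13 in HFD). The low end of the order turns too. With those lengths Ppp2r1b (4.45) is above Ppp2r5a (3.47) in Control, and Ppp2r5e (16.9) is level with Ppp2r5c (16.8) in HFD.

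Set side by side within a class, the paralogs divided as follows. The catalytic pair summed to 444 ± 70.0 CPM per kb in Control against 48.8 ± 7.05 in HFD, with 310 ± 87.3 in HFD+Mino. The scaffold pair summed to 304 ± 3.71, 304 ± 34.6 and 273 ± 65.3, so the catalytic sum was above the scaffold sum in Control and below it in HFD. With all GENCODE exons the catalytic sum was 232 ± 26.3, 36.2 ± 5.19 and 172 ± 52.2 CPM per kb and the scaffold sum 292 ± 3.35, 292 ± 33.4 and 262 ± 62.2, so that the order of the sums in Control turned with the lengths while the catalytic sum of HFD was below those of the other groups with both. The log2 ratio of Ppp2ca to Ppp2r1a per kb was 0.17 ± 0.262 in Control against −3.52 ± 0.158 in HFD, with −0.25 ± 0.51 in HFD+Mino (SD, n = 3), and −1.45, −5.15 and −1.87 with GENCODE lengths. Ppp2ca gave 77.1 ± 2.58% of the catalytic sum in Control against 53.9 ± 0.97% in HFD, with 74.2 ± 1.85% in HFD+Mino, and 45.6%, 22.4% and 41.7% with GENCODE lengths. The HFD shares, 53.1 to 55.0%, did not reach the lowest of the others at 72.8%, and the log2 ratio of Ppp2ca to Ppp2cb was lower by −1.53 in HFD than in Control. Of these values only the differences of a log2 ratio between groups do not depend on the lengths used.

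Ppp2r1a gave 99.2%, 99.2% and 99.5% of the scaffold sum in the 3 groups. The B family sum was 74.7 ± 4.52 CPM per kb in Control against 71.8 ± 5.83 in HFD, with 60.8 ± 6.95 in HFD+Mino, of which Ppp2r2a gave 32.7 ± 1.04%, 35.9 ± 1.37% and 28.5 ± 3.29%. The 3 B′ members summed to 27.5 ± 1.23, 30.7 ± 1.54 and 21.9 ± 1.79 CPM per kb. The B′ genes Ppp2r5b and Ppp2r5d, at 39.5 and 49.1 CPM per kb in Control with GENCODE lengths, are left out. The shares below are therefore not those of the whole family. Within that sum Ppp2r5a held 16.9 ± 1.09%, 1.54 ± 0.207% and 8.66 ± 4.66%, Ppp2r5e held 22.8 ± 2.83%, 43.5 ± 0.813% and 25.1 ± 4.91%, and Ppp2r5c held 60.4 ± 2.89%, 55.0 ± 0.93% and 66.3 ± 4.20%. With GENCODE lengths the B′ sums were 27.9, 34.1 and 22.9 CPM per kb, with 28.3%, 49.5% and 30.3% from Ppp2r5e and 12.4%, 1.04% and 6.25% from Ppp2r5a. With either set of lengths the share of Ppp2r5e was larger and that of Ppp2r5a smaller in HFD than in the other groups.

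**Figure D3:**
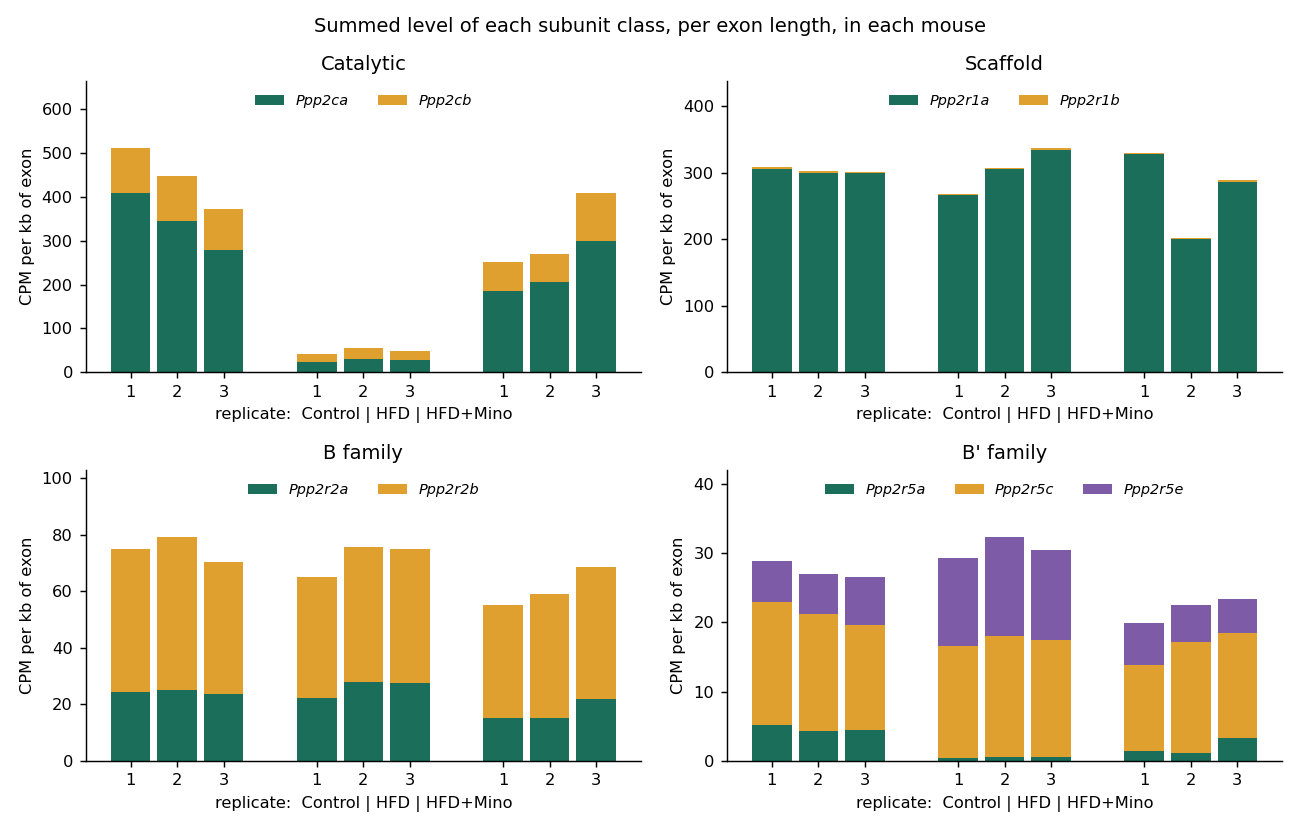
Stacked CPM per kb of exon for the members of each subunit class in each mouse (bars from 0, 3 mice per group in the order Control, HFD, HFD+Mino; vertical scales differ). The catalytic bars of HFD reach 41.8 to 55.9 against 250.3 or more in the other mice. The scaffold bars and those of Ppp2r2a with Ppp2r2b are of similar height in Control and HFD.

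Reads could in principle be shared between paralogs, so their coding sequences were compared. Ppp2ca and Ppp2cb were identical at 81.7% of 927 aligned positions, Ppp2r1a and Ppp2r1b at 65.3%, Ppp2r2a and Ppp2r2b at 74.2%, and the B′ pairs at 56.3 to 69.2%. No stretch of 50 nt of any member's coding sequence was found in another member. Copies elsewhere were found, and 24.6% of such stretches in Ppp2r5a were also found in other annotated genes, 248 of 347 in Gm13142. The share was 19.3% for Ppp2r2a (Gm19221) and 0.175% for Ppp2r1a. For Ppp2ca it was 6.15%, all in Gm24157. That gene shares 108 nt of exon with Ppp2ca on the opposite strand, at the same place in the genome, and so is not a copy elsewhere. The values of Ppp2r5a and Ppp2r2a are uncertain for this reason, since the treatment of reads that map to several places is not given in the sources used here. How far was not measured, because only coding sequence was searched while reads were counted over whole genes. Ppp2cb shares 219 nt of exon with Ubxn8 on the opposite strand, and Ppp2r2b shares 169 nt with 4933407I08Rik.

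The genes low in HFD differed widely in how GC-rich their transcripts were. Across all tested genes the GC-richest 100 nt of a transcript moved with the difference between HFD and Control. Of genes with 90% or more G and C in that stretch 19.6% were called lower in HFD, of those at 85 to 90% 11.6%, and of those at 80 to 85% 1.21%. Ppp2cb held 91%, in the first of these ranges. Ppp2ca and Ppp2r5e both held 84%, and lay at opposite ends of the 10 members. Ppp2r5a held 66%, below the median of 72%, where 0.4% of genes were called lower. With the trend of each library on this stretch removed, which was tried only once the data had been seen, the log2 fold change of HFD against Control was −3.53 for Ppp2ca, −1.53 for Ppp2cb, −3.28 for Ppp2r5a and 1.31 for Ppp2r5e. All 4 kept their call there. Ppp2r5a lost its call in HFD+Mino against HFD, where its log2 fold change was 1.93 rather than 2.01.

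**Figure D4:**
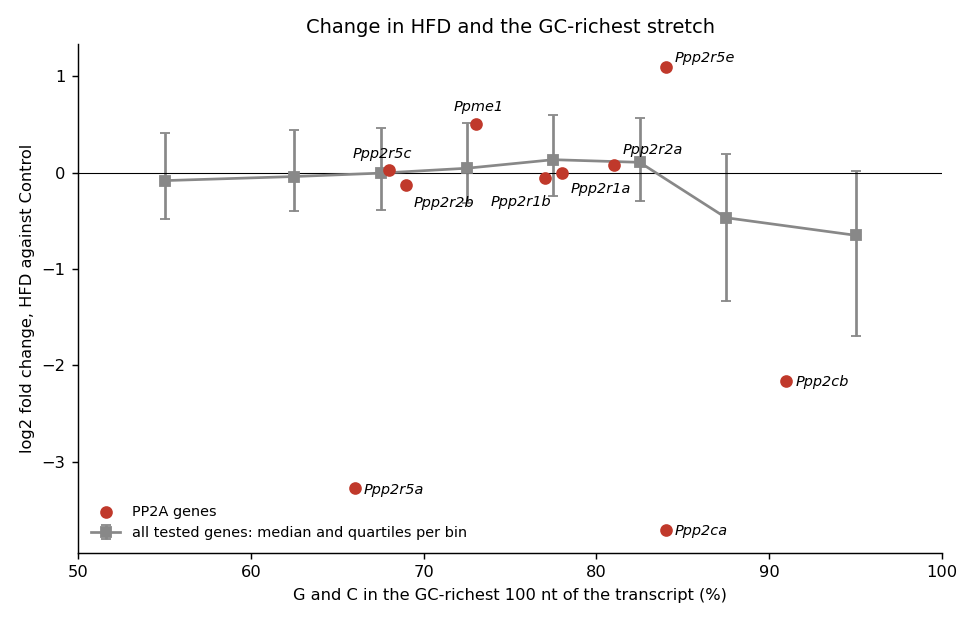
Log2 fold change of HFD against Control against the percentage of G and C in the GC-richest 100 nt of the transcript, with squares and bars for the median and quartiles of all tested genes in each of 8 bins and red points for the 10 PP2A genes. The medians fall to −0.47 and −0.65 in the bins from 85% upward; Ppp2cb lies in that range, Ppp2ca and Ppp2r5e share 84%, and Ppp2r5a lies at 66%.

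Exon length moved with the same difference. Lengths here were those of all GENCODE exons, 7490 nt for Ppp2ca. Genes under 2000 nt of GENCODE exon had a median log2 fold change of −0.27 in HFD against Control and those of 12000 nt or more a median of 0.52. In HFD+Mino against HFD the medians of these ranges were 1.00 and −0.60. Ppp2cb, with 1469 nt, lay in the first range. Ppp2ca, with 7490 nt, lay in that of 6000 to 8000 nt, where the median in HFD against Control was 0.21. The 2318 nt used for its level fall in the range of 2000 to 4000 nt, where that median was −0.16, of opposite sign. Removal of the trend with 2318 nt was not tried. With the trend on length removed, Ppp2cb moved to −1.97 and Ppp2r5e to 0.97 in HFD against Control, and to 1.10 (from 1.84) and −0.91 (from −1.29) in HFD+Mino against HFD, and both lost the call in all 3 comparisons where they had one, while Ppp2ca was at −4.00 and Ppp2r5a at −3.68 in HFD against Control and kept it. The ribosomal RNA precursor Rn45s also separated the groups, with 239 to 461 CPM in Control, 3477 to 3829 in HFD and 426 to 1346 in HFD+Mino. The part of RNA quality in the differences of the PP2A genes was not tested.

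The libraries that stood apart in tissue markers were left out in turn. Without Control replicate 1 the log2 fold change of HFD against Control was −3.57 for Ppp2ca, −2.14 for Ppp2cb, −3.20 for Ppp2r5a and 1.06 for Ppp2r5e, and the call of Ppp2r5e was lost. Without HFD+Mino replicate 1 or 2 the difference between HFD+Mino and HFD was 3.26 or 3.20 for Ppp2ca, 1.96 or 1.99 for Ppp2cb and 2.19 or 2.29 for Ppp2r5a, and without HFD+Mino replicate 3 it was 2.89, 1.53 and 1.41. Ppp2ca kept its call in HFD against Control and in HFD+Mino against HFD in all 9 fits that each left out 1 mouse, and lost the 3-way call only without HFD replicate 3. In HFD against Control, Ppp2cb and Ppp2r5a lost their call without HFD replicate 1 or HFD replicate 3. Ppp2r5e kept it in 2 of 9 fits, those without HFD+Mino replicate 2 or 3, and so lost it without any single Control or HFD mouse and without HFD+Mino replicate 1. Over all genes the main fit called 302 in HFD against Control. Without HFD replicates 1, 2 and 3 there were 59, 73 and 73, and without Control replicates 1, 2 and 3 there were 180, 91 and 304. Without HFD+Mino replicate 1 there were 241. From HFD to HFD+Mino the call was kept in 6 of 9 fits by Ppp2cb, in 4 by Ppp2r5a and in 4 by Ppp2r5e. All 3 lost it without any single HFD mouse, and Ppp2r5a and Ppp2r5e also without Control replicate 2 or HFD+Mino replicate 1. The 3-way call was kept in 5, 5 and 4 of the 9. In HFD+Mino against HFD the main fit called 719 of all genes, and those without HFD replicates 1, 2 and 3 called 54, 59 and 29. Without Control replicate 2 there were 148 and without HFD+Mino replicate 1 there were 105. None of the 10 members changed the sign of a called difference in the 9 fits.

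A further 30 genes were followed, all of which passed the filter: 10 other regulatory subunits of PP2A, 11 assembly and inhibitor genes and 9 catalytic subunits of related phosphatases. In HFD against Control 3 of the 30 fell and 0 rose, where 1.42% and 0.317% of all genes did, with a median log2 fold change of −0.07 against 0.00 over all tested genes. In the 3-way comparison the same 3 were lower and 0 higher, against 1.21% and 0.917% of all genes. From HFD to HFD+Mino the same 3 rose and 1 fell, where 1.98% of all genes rose and 2.16% fell, with a median of 0.13. Between HFD+Mino and Control edgeR called 0 of 30, with 3 at an unadjusted p under 0.05 and 0 called by DESeq2. Over all tested genes 21.3% had such a p there and DESeq2 called 1.56%.

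Among the 10 other regulatory subunits, 2 fell in HFD. Ppp2r2d, a further B family gene that acts in mitosis, stood at 110, 116 and 95.9 CPM in Control, 15.8, 22.4 and 25.4 CPM in HFD and 80.3, 84.8 and 106 CPM in HFD+Mino. Its HFD values lay below all others, by −2.34 ± 0.24 against Control (edgeR FDR = 0.000423), and it rose by 2.09 ± 0.238 in HFD+Mino against HFD (edgeR FDR = 0.000977). Strn3, a striatin that places PP2A in the STRIPAK complex, stood at 115, 123 and 128 CPM in Control, 35.9, 35.2 and 40.1 CPM in HFD and 75.0, 104 and 109 CPM in HFD+Mino, again with no overlap of HFD with the others. It fell by 1.72 ± 0.21 on the log2 scale in HFD (edgeR FDR = 0.00112) and was higher by 1.37 ± 0.208 in HFD+Mino than in HFD (edgeR FDR = 0.00395). Strn, its paralog, had the highest log2 fold change of these 10 in HFD against Control (1.02 ± 0.455, edgeR FDR = 0.235), which did not pass. It stood at 10.7, 5.96 and 12.7 CPM in Control, 20.2, 21.3 and 18.1 CPM in HFD and 2.05, 1.56 and 5.76 CPM in HFD+Mino, and the last group was below HFD by −2.66 ± 0.483 (edgeR FDR = 0.00763).

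Paralogs outside the 10 members also had unlike values. Ppp2r2d was lower in HFD where the B family members Ppp2r2a and Ppp2r2b were level, and Strn3 and Strn had log2 fold changes of opposite sign. The B′ genes Ppp2r5b and Ppp2r5d were at 0.20 ± 0.407 and 0.08 ± 0.315 in HFD against Control and were not called. The differences between paralogs were not themselves tested.

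Of the 11 assembly and inhibitor genes edgeR called 0 in every comparison. At an unadjusted p under 0.05 there were 2 in the 3-way comparison, 0 in HFD against Control, 5 in HFD+Mino against HFD and 1 in HFD+Mino against Control, and DESeq2 called 1 in HFD+Mino against HFD and 0 in the others. The counts by unadjusted p are 18.2%, 0%, 45.5% and 9.09% of the 11, beside 39.0%, 20.5%, 41.3% and 21.3% of all tested genes. DESeq2 called 13.5%, 6.84%, 22.4% and 1.56% of all tested genes in the same order. Lcmt1, the methyltransferase that opposes Ppme1, was at −0.19 ± 0.25 in HFD against Control and 0.92 ± 0.252 in HFD+Mino against HFD (edgeR FDR = 0.0239). Ptpa, the PP2A activator, was at 0.61 ± 0.304 and −1.01 ± 0.306 (edgeR FDR = 0.0334 for the second). The extremes in HFD against Control were Mastl, the kinase that turns Ensa and Arpp19 into PP2A inhibitors, at 0.86 ± 0.889, and Igbp1, which binds the free catalytic subunit, at −0.57 ± 0.392. Mastl was near the detection limit, at 0 to 2.01 CPM.

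Of the 9 catalytic subunits of related phosphatases, Ppp3cc, a calcineurin subunit, fell in HFD and the other 8 did not pass. Ppp3cc stood at 38.2, 29.0 and 26.1 CPM in Control, 8.23, 12.8 and 9.46 CPM in HFD and 27.2, 29.9 and 28.2 CPM in HFD+Mino, a log2 fold change of −1.61 ± 0.253 (edgeR FDR = 0.00464) and then 1.48 ± 0.252 (edgeR FDR = 0.00604). Its paralog Ppp3cb was at −0.68 ± 0.196 in HFD against Control (edgeR FDR = 0.0696) and Ppp3ca at −0.18 ± 0.303. Ppp4c and Ppp6c, the catalytic genes closest to PP2A in family, were at −0.39 ± 0.222 and 0.25 ± 0.231, the latter the highest of the 9. Under the replicate block that paired only Control and HFD+Mino mice, HFD+Mino against HFD called 9 of the 30 genes rather than 4, as it called 25.6% of all genes, adding Lcmt1, Ppp1ca, Ppp3cb and Ppp4c as higher and Ptpa as lower, and HFD+Mino against Control called 1, Strn, as lower, where it called 3.18% of all genes.

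**Figure D5:**
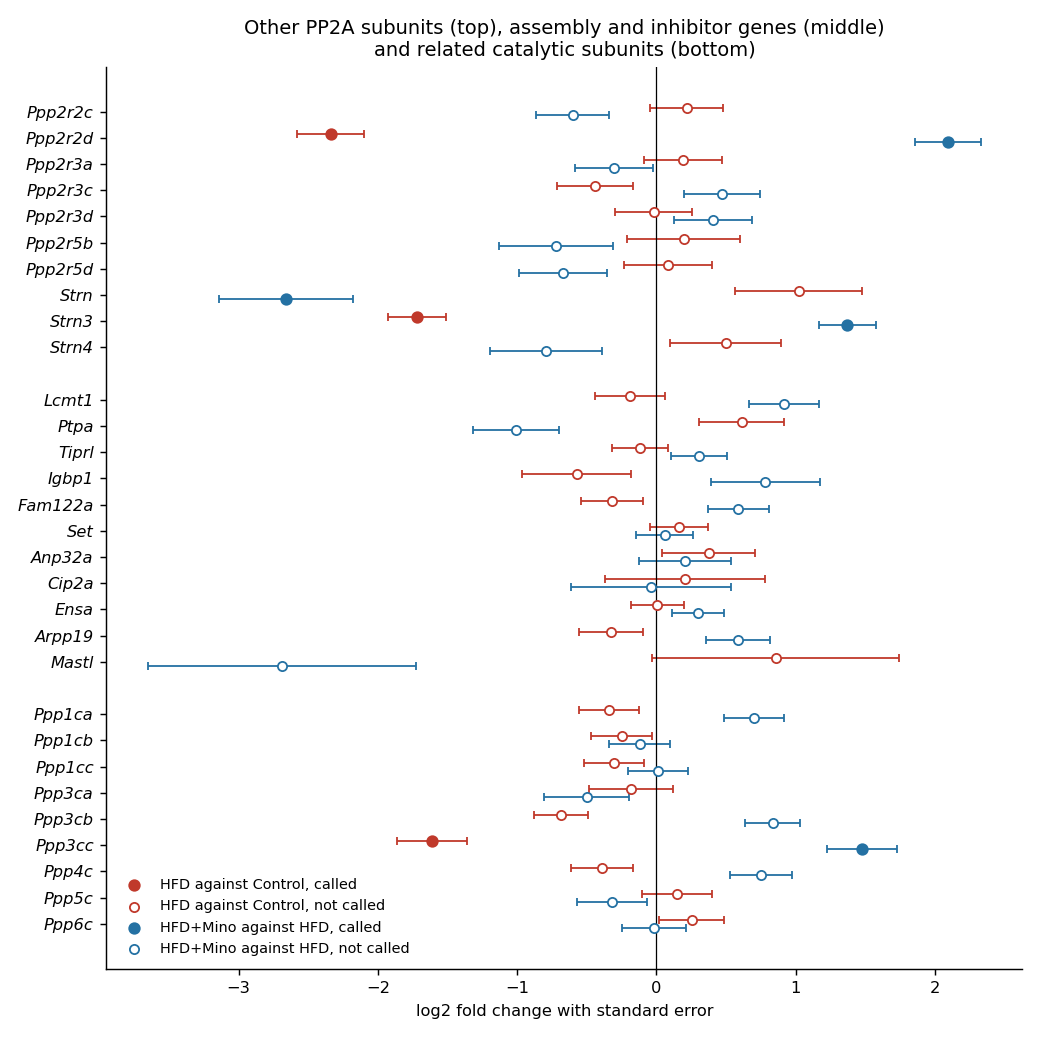
Log2 fold change with its standard error for 30 further genes of the PP2A system and related catalytic subunits in HFD against Control (red) and HFD+Mino against HFD (blue), filled where called at an FDR under 0.01 and at least 1.5-fold. Ppp2r2d, Strn3 and Ppp3cc are filled in both, to the left in red and to the right in blue, and Strn is filled in blue to the left.

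Of the called genes, Ppp2r2d kept its calls in both pairwise comparisons in all 9 fits that each left out 1 mouse. In HFD against Control, Strn3 lost its call without any single HFD mouse, and Ppp3cc without Control replicate 1 or 2, without any single HFD mouse, or with the GC-richest 100 nt trend removed. From HFD to HFD+Mino, Strn3 kept its call in 5 of the 9 fits and Ppp3cc in 3, each losing it without any single HFD mouse and without Control replicate 2, and Ppp3cc also without HFD+Mino replicate 1 or 2. The 3-way call was kept in 6 of 9 fits by Ppp2r2d, in 5 by Strn3 and in 3 by Ppp3cc. In HFD+Mino against HFD, Strn kept its call only without Control replicate 1, Control replicate 3 or HFD+Mino replicate 3, and lost it with the length trend removed.

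The genes whose levels ran most like Ppp2ca over the 9 mice were sought among 17118 tested genes by the root mean square (RMS) difference of log2 CPM after each gene was centred on its own mean. They were Lamp1, a lysosomal membrane protein, at 0.162, Ube2m, an E2 enzyme for NEDD8, at 0.203, Kctd2 at 0.237, Otulin, a linear deubiquitinase, at 0.302 and Dexi at 0.306, against a median of 1.67 over all genes compared. Lamp1 was at 924 ± 234 CPM in Control against 82.2 ± 20.6 in HFD, with 709 ± 96.0 in HFD+Mino. All 5 held 87 to 89% G and C in their richest 100 nt. The genes nearest to Ppp2r5e were Kif5c, a neuronal kinesin, at 0.127, Prr14l at 0.132, Myh10, a non-muscle myosin, at 0.138, Tmtc3 at 0.139 and Zfp106 at 0.140, against a median of 0.675. Kif5c was at 220 ± 35.5 CPM in Control against 462 ± 8.53 in HFD, with 171 ± 7.33 in HFD+Mino. These 5 had exon lengths of 7142 to 10458 nt, above the median of 4334 nt, and 71 to 80% G and C in their richest stretch. Likeness was measured over the same 9 libraries in which Ppp2ca and Ppp2r5e were noticed.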

How the data were processed

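PVN punches from 9 mice were sequenced as unstranded libraries made from full-length cDNA, 1 per mouse. Per the labels and the methods, the authors aligned reads to mm10 with HISAT2 and counted them per gene with featureCounts, and deposited raw counts, the unit used here. Versions, the annotation and the treatment of multi-mapping reads are not given in the sources used here. All 9 samples entered 1 edgeR 4.0.16 quasi-likelihood fit (R 4.3.3; TMM scaling, filterByExpr, 17344 genes, no block), with p-values adjusted by Benjamini-Hochberg over all of them. The call needed an FDR under 0.01 and 1.5-fold. Alternatives were DESeq2 1.42.0, RLE size factors, other filters, a replicate block, trends on exon length and GC content removed, and each mouse left out. The members, lists and tests were chosen with earlier results of these data known. Named were the 10 members, every further listed gene called, the extremes of each list, and the 5 genes nearest to Ppp2ca and to Ppp2r5e. Lcmt1, Ptpa, Ppp2r2c, Ppp2r5b, Ppp2r5d, Ppp3ca, Ppp3cb and Ppp4c were added after their values were seen. Genes without a symbol were kept by Entrez ID and held at most 0.0932% of reads.

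The titles number the mice of each group alike, while the HFD columns of the deposited table carry other numbers, so the block over all 9 mice and the correlations of HFD mice rest on the titles. Deviations from the group means correlated between same-numbered Control and HFD+Mino mice (r = 0.217, 0.27 and 0.432). They did not between same-numbered HFD and Control mice (r = −0.201, −0.131 and −0.013) or HFD and HFD+Mino mice (r = −0.203, −0.232 and −0.006). Among mice with unlike numbers r reached 0.082 between Control and HFD+Mino, 0.207 between Control and HFD and 0.216 between HFD and HFD+Mino. The last 2 are near the lowest of the values above 0 for like numbers, so the pairing is uncertain. The number was treated as a pairing of Control and HFD+Mino from the data alone. Replicates were separate mice.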

Additional observations from a re-analysis of the deposited data

How the results depend on the processing

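Called members numbered 4 in the 3-way comparison, in HFD against Control and in HFD+Mino against HFD, and the further list gave 3, 3 and 4 calls. With the trend on exon length removed the members gave 2, 2 and 2 calls, and the called genes were then Ppp2ca and Ppp2r5a. That setting called 2.13%, 2.34% and 2.69% of all genes in these comparisons, where the main fit called 2.13%, 1.74% and 4.15%. The further list in HFD+Mino against HFD gave 9 calls at an FDR under 0.05, 8 with DESeq2, 9 with the replicate block in Control and HFD+Mino alone, 11 with that block and the length trend removed, and 10 with that block and the GC-richest 100 nt trend removed. Those settings called 27.4%, 22.4%, 25.6%, 15.9% and 24.6% of all genes in HFD+Mino against HFD, where the main fit called 4.15%. In the 3-way comparison the further list gave 5 with the block and length trend, where 8.36% of all genes were called. In HFD+Mino against Control it gave 1 (Strn) rather than 0 with the block alone and with the block and GC-richest trend, which called 551 and 581 of all genes and 0 members there. The replicate block over all 9 mice gave 4, 3 and 4 members, losing Ppp2r5e in HFD against Control, and with no filter on low counts that comparison also gave 3, losing the same gene. The cause of these shifts was not tested.

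With 1 mouse left out at a time, members called ranged from 0 to 4 in the 3-way comparison, 1 to 4 in HFD against Control, 1 to 6 in HFD+Mino against HFD and 0 to 1 in HFD+Mino against Control, and the further list from 0 to 5, 1 to 3, 1 to 10 and 0 to 1. The lows came without single HFD mice, when edgeR called 10, 14 and 3 of all genes in the 3-way comparison rather than 369. Those fits called 59, 73 and 73 of all genes in HFD against Control rather than 302, and 54, 59 and 29 in HFD+Mino against HFD rather than 719. In HFD+Mino against HFD the further list also gave 1 without Control replicate 2, when 148 of all genes were called. The highs in HFD+Mino against HFD came without HFD+Mino replicate 3, when Ppp2r5a was also called lower in HFD+Mino than in Control. That fit called 3815 of all genes (21.4%) in HFD+Mino against HFD and 1120 (6.28%) in HFD+Mino against Control. Of 600 log2 fold changes recomputed for the members, 549 moved by less than the spread between mice, 51 moved more, and 0 called ones turned sign. With 3 mice a group and few reads of Ppp2r5a in HFD, small differences were not detectable.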
